A study of Nannochloropsis oceanica with 6 samples.

Results

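The copies of the chaperone ClpB were followed in Nannochloropsis oceanica strain IMET1, a small oil-forming marine alga, at high and low CO2. They are the genes NO20G02120, NO16G01260 and NO06G02920, 3 of 10633 genes in the deposited tables. They were taken from a list given by gene identifier and drawn up with earlier results of the CO2 comparison in view, so their change with CO2 is described here and not tested. All 3 carry the Swiss-Prot name of chaperone protein ClpB and the KEGG orthology group K03695 (clpB). Another 2 genes with a Swiss-Prot name of ClpB were not on the list (5 in all): NO29G00690, which is also in that group (4 genes in all), and NO12G03450, which the KEGG column places with clpC. A further gene off the list, NO12G01640, has no Swiss-Prot name and is described as a caseinolytic peptidase B protein, the long form of ClpB.

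ClpB, called Hsp100 or Hsp104 in eukaryotes, is a ring-shaped ATPase that pulls single protein chains out of aggregates through its central pore. It works with HSP70 and its DnaJ partners, which bring the aggregate to the ring and refold what is released, while small heat shock proteins coat unfolding proteins and keep the clumps open to this machinery. In land plants, separate ClpB proteins serve the cytosol, the chloroplast and the mitochondrion, and the cytosolic form is needed for survival of severe heat. ClpB has no partner peptidase, unlike its relatives ClpC and ClpX, which feed chains to the ClpP protease.

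Poly(A) RNA came from 6 separate column reactors of 800 ml, 3 per group, seeded alike at an OD750 of 1.5 in medium buffered with 10 mM Tris at pH 8.2, at 25 °C and 80 µmol photons m-2 s-1 of continuous light. All cultures began with 1 h on 5% CO2. The high CO2 group (the control) stayed on 5% CO2 and the low CO2 group went to 0.04% CO2, with samples taken after 24 h. Deposited estimated counts summed to 4620234 to 6112822 per library. The 23 genes described as antenna proteins, which mark a photosynthetic alga, summed to between 43083 and 56761 FPKM in a library. A single library in each group differed from its mates, replicate 3 in high and replicate 1 in low CO2: Pearson's r of log2 CPM with the other libraries of the group was 0.944 and 0.952 for the first and 0.923 and 0.932 for the second, against 0.982 between high CO2 replicates 1 and 2 and 0.987 between low CO2 replicates 2 and 3 (across 9244 genes, which are not independent replicates). Low CO2 replicate 1 was closer to high CO2 replicates 1 and 2 (r of 0.942 and 0.946) than to its group mates. High CO2 replicate 1 had an r of 0.950 with low CO2 replicate 3. The libraries that stood apart were thus as far from their mates as some libraries of different groups were from each other. In bulk RNA, fewer cells with a transcript and less of it per cell cannot be told apart.

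The 3 copies share a KEGG group and differ in their closest entry and ontology terms. The entries of NO20G02120 and NO06G02920 bear the same name, ClpB1, from different plants, and do not mark these copies as different types. The closest Swiss-Prot entry of NO20G02120 is ClpB1 of rice (Oryza sativa), and its ontology terms, which are assigned by likeness, include the chloroplast stroma and response to heat. That of NO16G01260 is a ClpB of the cyanobacterium Thermosynechococcus elongatus, with terms for the cytoplasm and response to heat. That of NO06G02920 is ClpB1 of Arabidopsis thaliana, and its terms name ATP binding and no compartment. The deposited gene length was 4343 bases for NO16G01260 with 1 transcript, 2883 to 2901 bases for NO06G02920 with 2 transcripts, and 3101 to 3361 bases for NO20G02120 with 3 transcripts. For genes with several transcripts the length differed between libraries, so their FPKM (fragments scaled by gene length and library size) also moves with the estimated transcript mix.

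NO20G02120, the copy annotated after the rice protein, had 224, 217 and 209 FPKM in high CO2 replicates 1, 2 and 3 and 137, 136 and 134 FPKM in low CO2 replicates 1, 2 and 3. The lowest high CO2 library lay well above the highest low CO2 library, and the libraries within a group were close, with a coefficient of variation of 3.51% in high and 1.19% in low CO2. The mean level was 217 ± 7.59 FPKM in high and 136 ± 1.61 FPKM in low CO2 (SD, n = 3 per group), 1.59-fold higher in high CO2. In TPM, which rescales each library to the same sum, the same gene ran from 284 to 323 in high and from 198 to 205 in low CO2. The libraries that stood apart from their groups for other genes were within 5.32% of their group mates here.

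NO16G01260, the copy annotated after the cyanobacterial protein, had 199, 188 and 187 FPKM in high CO2 replicates 1, 2 and 3 and 131, 133 and 143 FPKM in low CO2 replicates 1, 2 and 3. Its groups did not overlap either, and the mean level was 191 ± 6.29 FPKM in high and 135 ± 6.50 FPKM in low CO2 (SD, n = 3 per group), 1.41-fold higher in high CO2. In TPM the copy ran from 255 to 287 in high and from 189 to 217 in low CO2.

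NO06G02920, the copy annotated after the Arabidopsis protein, had 89.05, 96.19 and 66.56 FPKM in high CO2 replicates 1, 2 and 3 and 53.79, 75.55 and 67.63 FPKM in low CO2 replicates 1, 2 and 3. Here the groups overlapped, because high CO2 replicate 3 lay below low CO2 replicates 2 and 3. The mean level was 83.9 ± 15.5 FPKM in high and 65.7 ± 11.0 FPKM in low CO2 (SD, n = 3 per group), 1.28-fold higher in high CO2, and the coefficient of variation was 18.4% and 16.8%. High CO2 replicate 3 was 28.1% below the mean of its group mates and low CO2 replicate 1 was 24.9% below that of its own. Those are the libraries that stood apart across all genes, and their part in this spread was not tested. Without both of them the means were 92.6 and 71.6 FPKM, and the groups, now of 2 libraries each, did not overlap.

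**Figure D1:**
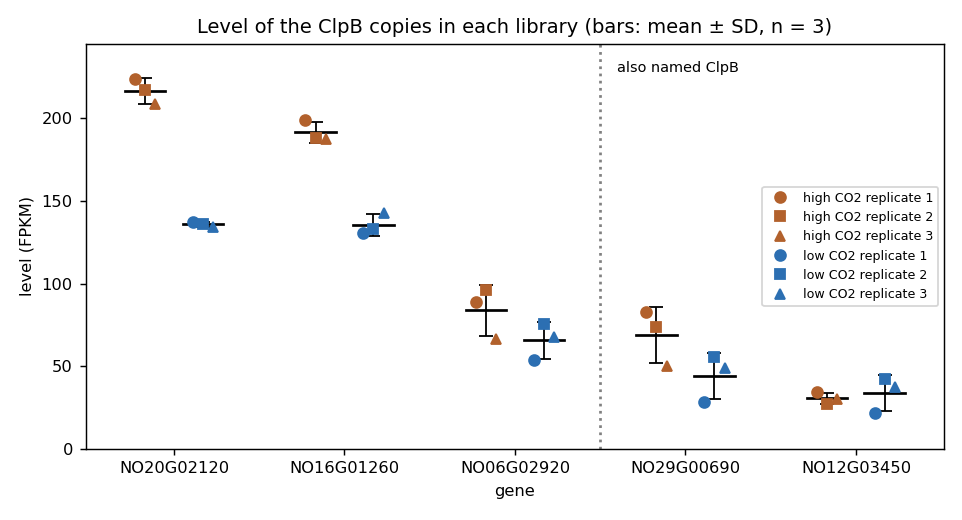
Level in FPKM (vertical axis) of the 3 ClpB copies and, right of the dotted line, of the 2 other genes with a Swiss-Prot name of ClpB. Each point is 1 library, in brown for high and blue for low CO2, and bars are the mean ± SD of 3 libraries; NO20G02120 and NO16G01260 show no overlap between groups, while NO06G02920, NO29G00690 and NO12G03450 do overlap.

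On the log2 scale, the change fitted by edgeR over all genes (low minus high CO2) was -0.69 (SE 0.10) for NO20G02120, -0.57 (SE 0.10) for NO16G01260 and -0.43 (SE 0.15) for NO06G02920. Among the 9244 genes tested, 3.81%, 6.36% and 11.9% had a larger fall than these copies, in the same order, and the median change of all genes was 0.01. By count, 2 of the 3 copies, NO20G02120 and NO16G01260, were past an adjusted p of 0.05 on the low side, where 0.898% of all genes tested were (2.12% in either direction). The high CO2 libraries all lay above the low CO2 libraries for these same 2 copies, and for 11.8% of all genes tested. Both counts come from the contrast behind the choice of the genes and are given as a description. Leaving out high CO2 replicate 1, 2 or 3 or low CO2 replicate 2 or 3 left 0 copies past that threshold, leaving out low CO2 replicate 1 left 2, limma gave 1, and leaving out both libraries that stood apart gave 3. That last setting called 1805 of 9300 genes lower, against 83 of 9244 in the main fit. Both libraries were picked from these same data for differing from their mates. Adjusted p-values without either or both of them are therefore given as a description only, here and below. Without low CO2 replicate 1 the number called lower was 955 of 9334. The sign was negative for each copy in each of the 14 alternatives run. The authors' deposited table of genes that differ between the conditions lists 217 of the 10633 genes and 0 of the 3 copies. The small heat shock gene NO08G01140 (log2 fold change -0.83, adjusted p = 8.6e-05 in DESeq2) is not listed either. Absence from that table is thus not read as a lack of change.

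**Figure D2:**
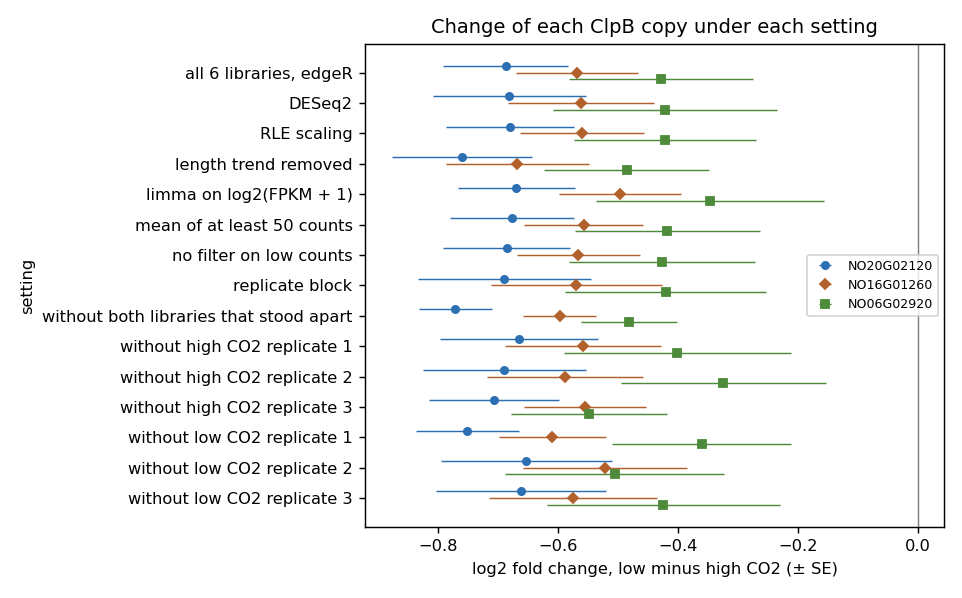
Log2 fold change of each ClpB copy, low minus high CO2, on the horizontal axis with its SE, under the main setting and 14 alternatives on the vertical axis. Points of all 3 copies lie below 0 throughout, and NO06G02920 ranges from -0.55 to -0.32.

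The copies were next compared with each other within each library, where library scaling cancels out. NO20G02120 and NO16G01260 were close: the first was 1.13, 1.15 and 1.11 times the FPKM of the second in high CO2 replicates 1, 2 and 3, and 1.05, 1.02 and 0.939 times in low CO2 replicates 1, 2 and 3. NO20G02120 was thus a little above NO16G01260 in each high CO2 library, and in low CO2 the pair did not differ beyond the spread of the libraries. The mean log2 ratio was 0.18 ± 0.02 in high and 0.00 ± 0.09 in low CO2 (SD, n = 3 per group), a difference of -0.17 (SE 0.05, low minus high), and the groups of ratios did not overlap. With counts divided by the deposited gene length in place of FPKM, the ratio in high CO2 was 0.15 on the log2 scale. Some reads of NO20G02120 were divided with small heat shock genes that are higher in high CO2 (described below). How much this adds to the ratio was not tested.

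NO06G02920 was the lowest of the copies in all 6 libraries. NO20G02120 stood at 2.51, 2.26 and 3.14 times its FPKM in high CO2 replicates 1, 2 and 3 and at 2.55, 1.80 and 1.98 times in low CO2 replicates 1, 2 and 3. NO16G01260 stood at 2.23, 1.96 and 2.81 times its FPKM in the high CO2 replicates and at 2.43, 1.76 and 2.11 times in the low CO2 replicates, in the same order. Both ratios were highest within their group in the library that stood apart, high CO2 replicate 3 and low CO2 replicate 1. For these pairs the ratios of the groups overlapped, and the differences of the mean log2 ratio (low minus high) were -0.32 (SE 0.21) against NO20G02120 and -0.15 (SE 0.20) against NO16G01260.

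**Figure D3:**
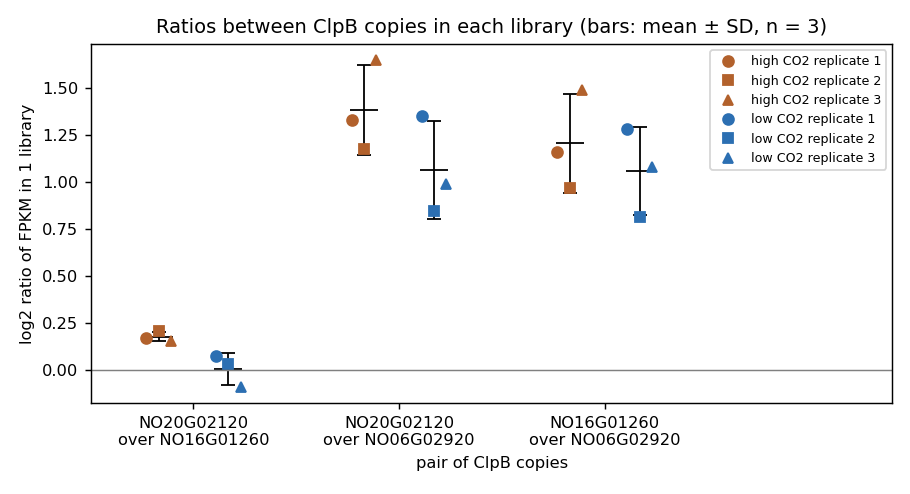
Log2 ratio of FPKM within 1 library (vertical axis) for each pair of ClpB copies, with points for the 6 libraries and bars for the mean ± SD of 3 libraries. Ratios of NO20G02120 to NO16G01260 lie from 0.16 to 0.20 in high and from -0.09 to 0.07 in low CO2, while the ratios to NO06G02920 overlap between groups.

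Added together, the 3 copies came to 512, 502 and 463 FPKM in high CO2 replicates 1, 2 and 3 and to 322, 344 and 345 FPKM in low CO2 replicates 1, 2 and 3. The mean of the sum was 492 ± 25.9 FPKM in high and 337 ± 13.1 FPKM in low CO2 (SD, n = 3 per group), 1.46-fold higher in high CO2. NO20G02120 made up 44.0 ± 0.957% of the sum in high and 40.4 ± 2.03% in low CO2, and NO16G01260 39.0 ± 1.47% and 40.2 ± 1.48%. The share of NO06G02920 was 17.0 ± 2.42% and 19.4 ± 2.62%, with an SD as large as the step between the groups. The share of NO20G02120 was lower in each low CO2 library than in any high CO2 library, while the shares of the others overlapped between the groups. The divided reads of NO20G02120 limit the sum and the shares in the same way.

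The 3 genes off the list that are described as ClpB lay below NO20G02120 and NO16G01260, and they did not share 1 direction. NO29G00690, whose terms name the chloroplast, the mitochondrion and the cytoplasm, had 82.76, 73.85 and 49.81 FPKM in high CO2 replicates 1, 2 and 3 and 28.35, 55.33 and 48.85 FPKM in low CO2 replicates 1, 2 and 3. Its log2 fold change of -0.73 (SE 0.23) was as large as that of NO20G02120, but its groups overlapped and it did not pass the test (adjusted p = 0.164, edgeR's quasi-likelihood test). Of the 14 alternatives it passed in 1, without both libraries that stood apart (-0.70, adjusted p = 1.23e-06), where 1805 of 9300 genes were called lower and 1597 higher. As with NO06G02920, it was low in the libraries that stood apart, 36.4% below the group mates in high CO2 replicate 3 and 45.6% below in low CO2 replicate 1. NO12G03450, the clpC-grouped gene, was at 30.5 ± 3.49 FPKM in high and 33.7 ± 10.9 FPKM in low CO2 (log2 fold change 0.06, SE 0.22, adjusted p = 0.905 in edgeR). NO12G01640 had the opposite sign to the copies: it was at 85.80, 78.29 and 60.60 FPKM in high CO2 replicates 1, 2 and 3 and at 77.64, 112.72 and 105.42 FPKM in low CO2 replicates 1, 2 and 3. Its groups overlapped and it did not pass in edgeR (log2 fold change 0.33, SE 0.15, adjusted p = 0.289), and of the alternatives it passed in 1, again without both libraries that stood apart (0.31, adjusted p = 0.00338). By mean level the order in high CO2 was NO20G02120, NO16G01260, NO06G02920, NO12G01640, NO29G00690 and NO12G03450, where the libraries of NO06G02920, NO12G01640 and NO29G00690 overlapped. In low CO2, NO12G01640 came before NO06G02920, with each of its libraries above those of that copy, and the rest of the order was the same. There the libraries of NO20G02120 and NO16G01260 overlapped, as did those of NO06G02920 and NO29G00690 and those of NO29G00690 and NO12G03450.

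By locus number, NO20G02120 sits beside a run of small heat shock protein genes, NO20G02130, NO20G02140 and NO20G02150. Gene positions were not used here, so this nearness rests on the numbering. The estimated counts of NO20G02120 were 3459.19, 3268.62 and 2879.21 in high CO2 replicates 1, 2 and 3 and 1901.68, 2323 and 2557.61 in low CO2 replicates 1, 2 and 3, and thus were not whole in 5 of 6 libraries. Added to those of the 3 small heat shock genes, they came within 0.01 of a whole number in each library, for example 15746 in high CO2 replicate 1 and 6203 in low CO2 replicate 2. Some reads were thus divided among genes of this run, how many cannot be read from the tables, and the levels of NO20G02120 and its small heat shock neighbours are uncertain to that extent. The counts of NO16G01260 and NO06G02920 were whole in all 6 libraries.

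The small heat shock neighbours, holdases whose clients ClpB can later extract, had a larger difference than the ClpB copy. NO20G02130 was at 1332, 1262 and 1295 FPKM in high CO2 replicates 1, 2 and 3 and at 382, 416 and 448 FPKM in low CO2 replicates 1, 2 and 3, and it fell in low CO2 (log2 fold change -1.82, SE 0.11, adjusted p = 0.00059 in edgeR). NO20G02120 took 22.0%, 22.2% and 21.5% of the counts of the 4 genes in high CO2 replicates 1, 2 and 3 and 37.1%, 37.4% and 36.1% in low CO2 replicates 1, 2 and 3. On its other side by number, the putative hydrolase NO20G02110 was at 52.9 ± 7.67 and 43.0 ± 6.47 FPKM with overlapping groups (SD, n = 3 per group). The genes within 2 places of NO16G01260 (4 genes) and NO06G02920 (3 of 4 tested) had adjusted p from 0.235 to 0.948 in edgeR, and their log2 fold changes ran from -0.92 (NO16G01250, undescribed) to 0.46 (NO16G01240, a lipase). Without low CO2 replicate 1 NO16G01250 passed (-1.59, adjusted p = 0.0179), and without both libraries that stood apart NO16G01250, NO16G01280 and NO06G02900 did. Over all genes, those settings called 955 of 9334 and 1805 of 9300 lower.

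**Figure D4:**
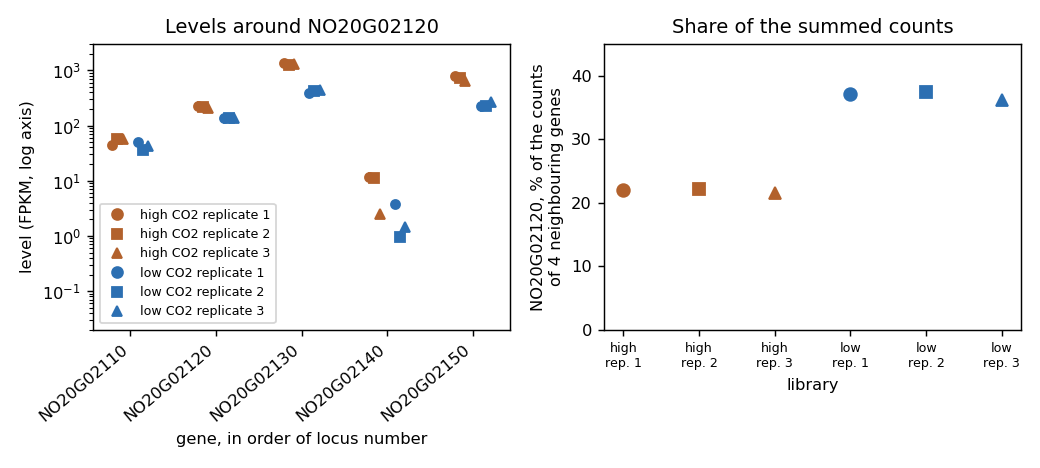
Left, level in FPKM on a log axis of NO20G02120 and the genes numbered next to it, with 1 point per library in brown for high and blue for low CO2. Right, NO20G02120 as a percent of the estimated counts of the 4 genes NO20G02120 to NO20G02150 in each library, between 21.5% and 22.2% in high and between 36.1% and 37.4% in low CO2.

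The partners of ClpB, together with other chaperones, proteases and heat shock factors, were examined as 9 lists defined by words in the gene descriptions. The 3 copies were left out, and the lists were chosen with earlier results of these data known. Of 5 small heat shock genes, 4 fell in low CO2 and 1, NO20G02140, did not pass (8.40 ± 5.13 and 2.08 ± 1.54 FPKM, adjusted p = 0.195), with a median log2 fold change of -1.66 against 0.01 over all genes. NO20G02140 did pass without low CO2 replicate 1 (-2.91, adjusted p = 0.0311) and without both libraries that stood apart (-3.33, adjusted p = 2.69e-08). Those settings called 5 of 5 small heat shock genes lower, and over all genes 955 of 9334 and 1805 of 9300. Besides NO20G02130, the small heat shock genes that fell in the main test were NO20G02150 (-1.66, SE 0.12), NO18G01280 (-1.18, SE 0.20) and NO08G01140 (-0.83, SE 0.14), with adjusted p of 0.00104, 0.032 and 0.032 in edgeR. NO20G02130 and NO20G02150 passed in each of 14 alternatives, and NO18G01280 and NO08G01140 in 8 of them each, not with the replicate block or without high CO2 replicate 1, 2 or 3 or low CO2 replicate 2 or 3. Of 35 genes on the DnaJ list, whose proteins hand clients to HSP70, 1 fell, 0 rose and 34 did not pass in edgeR, with a median of 0.06. On the high side, 7 had an unadjusted p below 0.05, and DESeq2 and limma called 1 each. The DnaJ gene that fell, NO12G00410, had 306, 293 and 323 FPKM in high CO2 replicates 1, 2 and 3 and 147, 212 and 189 FPKM in low CO2 replicates 1, 2 and 3 (log2 fold change -0.80, SE 0.12, adjusted p = 0.025). It passed in 7 of 14 alternatives, and not in limma, with the block, or without high CO2 replicate 1, 2 or 3 or low CO2 replicate 2 or 3. The most abundant DnaJ gene, NO23G01280, was at 521 ± 72.4 and 407 ± 56.0 FPKM and did not pass (adjusted p = 0.321).

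The HSP70 list, the ATP-driven partners of the disaggregase, had 15 genes, and 0 passed in edgeR in either direction (1 higher and 2 lower at an unadjusted p below 0.05, 0 by DESeq2 and 0 by limma). By wording it also took in HSP70-HSP90 organizing proteins and an HSP70-binding protein. Its most abundant gene, NO23G00640, was at 372 ± 22.3 FPKM in high and 470 ± 26.3 FPKM in low CO2 and had the opposite sign to the ClpB copies (log2 fold change 0.27, SE 0.14, adjusted p = 0.324). Of the 14 other Clp and Hsp100 genes, 0 passed in edgeR, with 0 higher and 4 lower at an unadjusted p below 0.05 and 0 by DESeq2 and limma; the list took in an mRNA processing factor (NO17G00150) and a membrane protein (NO26G00360) by name alone. Its most abundant gene, the ClpP-type peptidase subunit NO20G01520, was at 421 ± 47.3 and 380 ± 65.6 FPKM (adjusted p = 0.603). The lists of HSP70 nucleotide exchange factors, HSP90 and its co-chaperones, chaperonins, heat shock transcription factors and FtsH, Lon and Deg proteases had no call in edgeR either. Their median log2 fold changes were -0.15, -0.07, 0.08, 0.32 and 0.02 in that order, over 4, 8, 17, 5 and 17 genes tested. DESeq2 called 1 gene lower on the HSP90 list, 1 higher on the chaperonin list and 1 higher on the protease list. On the HSP90 list the largest fall was that of the co-chaperone gene NO14G02250 (57.3 ± 1.69 and 36.2 ± 9.35 FPKM, log2 fold change -0.74, adjusted p = 0.0771 in edgeR). By wording, the chaperonin list also took in genes described as Protein TCP17 and as a T-complex protein 11-like protein. The HSP90 list took in a hypothetical protein and the HSP70-HSP90 organizing proteins that are also on the HSP70 list. A gene for GrpE, which swaps the nucleotide on HSP70, was at 203, 212 and 210 FPKM in high CO2 replicates 1, 2 and 3 and at 231, 80.6 and 97.6 FPKM in low CO2 replicates 1, 2 and 3 (NO19G01420, adjusted p = 0.447), so that low CO2 replicate 1 was the highest library. Its log2 fold change in edgeR was -0.63, and it passed without low CO2 replicate 1 (-1.35, adjusted p = 0.00134) and without both libraries that stood apart (-1.32, adjusted p = 6.78e-10). The other GrpE genes, NO04G01590 and NO20G01620, had -0.10 and -0.19 and did not pass (adjusted p = 0.730 and 0.442). NO03G01460, the most abundant HSP90 gene, was at 572 ± 22.5 and 687 ± 95.1 FPKM (adjusted p = 0.532), and NO05G01850, the most abundant chaperonin gene, at 399 ± 47.5 and 351 ± 39.0 FPKM (adjusted p = 0.373). The most abundant heat shock factor, of the class that switches on heat shock genes, was at 718 ± 35.1 and 564 ± 60.5 FPKM (NO22G01460, log2 fold change -0.22, adjusted p = 0.307). Of the other heat shock factors, NO04G04050 had -0.25. The rest had the opposite sign, with 0.32 for NO09G00420, 1.04 for NO12G00520 and 1.55 for NO01G03910 (at 1.29 and 3.97 FPKM). None of the 5 passed (adjusted p from 0.251 to 0.530 in edgeR). The FtsH protease NO02G03120 was at 466 ± 17.9 and 543 ± 84.2 FPKM (adjusted p = 0.537). Without both libraries that stood apart, NO23G00640 (0.23, adjusted p = 0.00119) and NO02G03120 (0.26, adjusted p = 0.000259) passed as higher in low CO2, and NO20G01520 (-0.31, adjusted p = 0.000309), NO23G01280 (-0.21, adjusted p = 0.0305) and NO22G01460 (-0.32, adjusted p = 0.000126) as lower. That setting called 1805 of 9300 genes lower and 1597 higher, and the setting without low CO2 replicate 1 called 955 of 9334 lower. Together, the 7 lists without a call hold 76 genes, 75 of them tested, with 4 higher and 9 lower at an unadjusted p below 0.05, 2 higher and 1 lower by DESeq2, and 0 by limma.

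**Figure D5:**
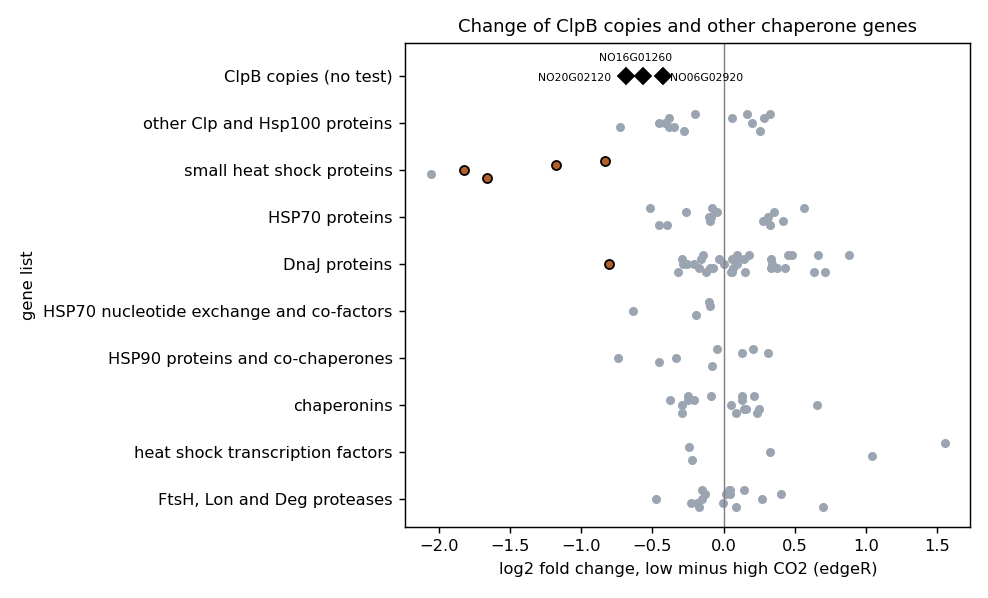
Log2 fold change, low minus high CO2 (horizontal axis), of the ClpB copies (black diamonds, not tested) and of each tested gene of 9 lists of chaperones and proteases (vertical axis). Outlined brown points passed edgeR's test: 4 of 5 small heat shock genes and 1 of 35 DnaJ genes, all on the low side, and grey points did not pass.

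Across the lists, 5 of the 115 genes tested fell and 0 rose in edgeR (15 lower and 11 higher at an unadjusted p below 0.05; 6 lower and 3 higher by DESeq2; 4 lower and 1 higher by limma), where 0.898% of all genes were called lower and 1.22% higher. Their median log2 fold change was 0.00, and 57 of the 115 were below 0. Because the lists were chosen with earlier results of these data known, these counts are given as a description. Of the 5 that fell, 4 were small heat shock genes, and NO20G02130 and NO20G02150 lie in the run among which reads were divided. In the authors' deposited table, which holds 217 of the 10633 genes, 3 of the list genes appear. They are NO20G02130, NO20G02150 and NO18G01280, with log2 fold changes of -1.81, -1.65 and -1.17.

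The genes whose pattern over the 6 libraries lay closest to each copy were found from log2(CPM + 1) centred on each gene's mean, as the root mean square difference over the libraries, over the 8585 other genes whose mean level reached 5 FPKM. This ranking reads the CO2 contrast too and is a description. For NO20G02120 the closest 4 described genes were NO04G03690 of the H/ACA ribonucleoproteins that guide RNA modification (0.07), the fellow copy NO16G01260 (rank 3, 0.08), the protein kinase NO27G00430 (0.08) and the GTP-binding protein NO04G00440 (0.08). By FPKM, NO16G01260 was not among the nearest 4 of NO20G02120. Ranked from NO16G01260, NO20G02120 lay at rank 18 (0.08). NO04G00440 was also the closest to NO16G01260 (0.03), followed by the purine nucleoside phosphorylase NO05G01220 (0.05), the coproporphyrinogen oxidase NO12G00680 of chlorophyll and heme synthesis (0.05) and NO19G01380, a subunit of a tRNA-modifying complex (0.06). Around NO06G02920 lay a transcription factor subunit, NO16G02730 (0.07), the cytochrome P450 reductase NO01G03530 (0.07), NO02G03040, an ATPase homologous to ASNA1 (0.07), and the protein kinase NO11G01760 (0.07). From NO06G02920 the fellow copies were farther off, at rank 812 for NO16G01260 (0.22) and rank 1033 for NO20G02120 (0.23), and NO29G00690 lay at rank 1115 (0.24). The small heat shock neighbour NO20G02130 was far from NO20G02120 in this measure (0.57, rank 6562). The measure counts the size of a change as well as its shape, and NO20G02130 fell in the same direction by more (-1.82 against -0.69).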

How the data were processed

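RNA-seq tables of 6 libraries were used, grouped by the submitters' titles. The tools listed in the submitters' processing notes are STAR, featureCounts, StringTie, edgeR, Picard and Trim Galore; versions, roles, genome build and annotation are not given in the sources used here. Each per-library table deposited by the authors holds expected counts, not normalized, per the file headers; 17.5% to 19.8% of values per library were off a whole number by more than 0.004. Its TPM column, scaled to the same sum in each library by the authors, and its FPKM column, scaled for gene length and library size by the authors, are named per the file headers. A further table deposited by the authors gives log2 fold changes and adjusted p-values for 217 genes, with FPKM equal to the per-library values. The reference held 160 genes, of which 0 matched, so names are those of the deposited tables.

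Counts were rounded, filtered with filterByExpr (9244 genes kept), scaled by TMM and tested with edgeR's robust quasi-likelihood test (version 4.0.16, R 4.3.3) with no term for replicate number. Calls required an adjusted p under 0.05 after Benjamini-Hochberg correction over every tested gene. The biological coefficient of variation was 23.1%. SE is the log2 fold change over the root of F. The fit was checked on simulated counts with the same dispersion for every gene and no library that stood apart. That check cannot show how the test behaves where a library stands apart, as here. The members and lists were chosen with earlier results of these data known. Genes named are the copies, the 4 nearest described genes of each, up to 4 called genes and the most abundant gene of each list, and genes within 2 places by number (not all are printed). NO29G00690, NO12G03450, NO12G01640, NO04G01590, NO20G01620, NO17G00150, NO26G00360, NO04G04050, NO09G00420, NO12G00520, NO01G03910 and NO14G02250 were added after their values were seen. Alternatives were a replicate block, keeping all genes or only those averaging 50 counts or more, RLE scaling, DESeq2 1.42.0, limma 3.58.1 on log2(FPKM + 1) where the mean reached 1 FPKM, removing a trend on gene length, and leaving out each library or both that stood apart. The replicates were separate reactors.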

Additional observations from a re-analysis of the deposited data

How the results depend on the processing

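The log2 fold changes of the 3 ClpB copies (low minus high CO2) kept their sign in all 14 alternatives, from -0.77 to -0.65 for NO20G02120, -0.67 to -0.50 for NO16G01260 and -0.55 to -0.32 for NO06G02920. They moved by more than the SD between libraries for NO20G02120 without both libraries that stood apart (-0.77), and for NO16G01260 with the length trend removed (-0.67) and in limma (-0.50). The number of copies past the threshold, 2 in the main setting, was 1 in limma, 0 with the replicate block, and 0 to 2 when 1 library was left out. Called list genes on the low side, 5 in the main setting, were 2 with the replicate block, 30 without both libraries that stood apart, and 2 to 16 with 1 library left out; those on the high side, 0 in the main setting, were 3 by DESeq2, 1 by limma, 25 without both libraries, and 0 to 7 with 1 left out. Over all genes, 113 higher and 83 lower became 338 and 243 by DESeq2, 17 and 4 with the replicate block, 1597 and 1805 without both libraries, and 14 to 655 and 4 to 955 with 1 left out. The cause was not tested. The log2 ratio of NO20G02120 to NO16G01260 in high CO2, 0.18, was 0.15 by counts per gene length; the other ratios and differences moved by less than the SD between libraries.

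Libraries with the same replicate number did not deviate together (r of deviations from the group means -0.36, 0.08 and -0.43 for numbers 1, 2 and 3). The libraries that stood apart, high CO2 replicate 3 and low CO2 replicate 1, had an r of 0.37. High CO2 replicate 1 and low CO2 replicate 3 had 0.40, and the remaining pairs ran from -0.20 to 0.25. With 3 libraries per group, 1 of which stood apart in each, these values cannot exclude a pairing by number. The main test did not model one. Of the 36 other named genes put through the alternatives, none changed sign past the threshold. The nearest genes by FPKM shared 4, 4 and 1 of 4 with the CPM ranking for NO16G01260, NO06G02920 and NO20G02120.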
